A study of Mus musculus with 8 samples.

Results

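Sarcoplasmic reticulum calcium cycling was followed through 10 genes, *Ryr2*, *Atp2a2*, *Atp2a3*, *Pln*, *Casq1*, *Casq2*, *Trdn*, *Jph2*, *Slc8a1* and *Calr*, in the hearts of mouse embryos labelled WT or SIRT1 KO (knockout of the deacetylase SIRT1). Every array probe whose accession belongs to 1 of these genes was kept, which gave 23 of the 41174 probes on the array. Of the 10 genes, 4 have 1 probe (*Atp2a3*, *Pln*, *Casq1* and *Casq2*) and 6 have several, up to 7 for *Slc8a1*. All 23 probes were well above background in all 8 hearts, so each one was measured and tested.

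The samples were 4 hearts labelled WT and 4 labelled SIRT1 KO at E18.5, shortly before birth, each on its own one-color Agilent array, and nothing was pooled. By the methods, SIRT1 KO embryos carry a germ-line deletion of *Sirt1* in every tissue and came, like their WT controls, from crosses of heterozygous parents on the C57BL/6 background (C57BL/6J in the methods) kept on a chow diet. No other treatment was given. Hearts of both sexes were used. The arrays were run to look for transcripts that accompany the disordered cardiomyocytes of these hearts. Labeling started from 500 ng of total RNA.

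The label was checked against the targeted gene first. The brighter *Sirt1* probe (A_52_P358612) read -0.14, 0.32, 0.00 and 0.00 in the WT hearts and 0.64, 0.50, 0.43 and 0.75 in the hearts labelled SIRT1 KO, where each value is the log2 intensity minus the 75th percentile of its array. It was higher in the latter by a log2 difference (the log2 fold change, labelled SIRT1 KO against WT) of 0.54 ± 0.11 (SE; limma adjusted p = 0.032), and the other *Sirt1* probe (A_51_P141152) had a log2 fold change of -0.11 (adjusted p = 0.589 with limma). The call of the brighter probe was kept only without WT replicate 2 or SIRT1 KO replicate 3 among the 8 fits that left out a heart (adjusted p up to 0.092), and in 5 of 10 other settings (adjusted p up to 0.117). Its log2 fold change was above 0 in all of them. Of the 10 settings, 1 used the authors' table of the series, which holds the same signal, so its outcome was fixed in advance. Neither probe was lower past the threshold, and where they lie relative to the deleted part is not analysed here, so every direction below rests on the labels and the group is called hearts labelled SIRT1 KO. The tissue did carry its markers: all 10 cardiomyocyte genes of a fixed list, among them *Tnnt2*, *Actc1* and *Nkx2-5*, were well above background, and 0 of them passed the test (summed signal 1999 to 2158 in WT and 2113 to 2463 in hearts labelled SIRT1 KO, in units of the 75th percentile of the array). All WT arrays lay on 1 slide and all arrays labelled SIRT1 KO on another, scanned on different days, so genotype, slide and scan day cannot be told apart.

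In a cardiomyocyte, an action potential lets a little calcium in at the plasma membrane, and this calcium opens the ryanodine receptor RYR2 in the sarcoplasmic reticulum, which releases far more. Triadin ties the receptor to calsequestrin, the calcium buffer inside the store, and junctophilin 2 holds the store close to the plasma membrane. Relaxation follows when the SERCA pump, encoded in heart muscle mainly by *Atp2a2*, returns calcium to the store under the brake of phospholamban (*Pln*), while the sodium-calcium exchanger NCX1 (*Slc8a1*) exports the rest. In the fetal heart the store is still immature, and the exchanger and the chaperone calreticulin (*Calr*) are known to be abundant.

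The start-site sequences of these genes differ in kind, and 4 are shown because they belong to the 2 genes with a probe past the threshold (*Atp2a3* and *Slc8a1*) and to 2 typical muscle genes of the store (*Pln* and *Casq2*). RefSeq held windows of 250 bases before to 50 after the start for 8 of the 10 genes, with none for *Atp2a2* and *Trdn*. Capitals mark matches on either strand to the GC box GGGCGG, the TATA box TATAAA or the E-box CANNTG, and overlapping matches run together. The windows are in GRCm38.p6: Atp2a3 at chr11:72960919-72961218 (plus strand), Slc8a1 at chr17:81738338-81738637 (minus strand), Pln at chr10:53337436-53337735 (plus strand) and Casq2 at chr3:102086165-102086464 (plus strand).
Atp2a3: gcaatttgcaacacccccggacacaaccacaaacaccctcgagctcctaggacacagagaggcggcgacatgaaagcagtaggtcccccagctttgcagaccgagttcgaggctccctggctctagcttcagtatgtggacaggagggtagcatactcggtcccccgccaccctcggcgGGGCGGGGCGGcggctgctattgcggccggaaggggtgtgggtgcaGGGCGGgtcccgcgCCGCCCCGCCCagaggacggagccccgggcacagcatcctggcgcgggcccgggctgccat
Slc8a1: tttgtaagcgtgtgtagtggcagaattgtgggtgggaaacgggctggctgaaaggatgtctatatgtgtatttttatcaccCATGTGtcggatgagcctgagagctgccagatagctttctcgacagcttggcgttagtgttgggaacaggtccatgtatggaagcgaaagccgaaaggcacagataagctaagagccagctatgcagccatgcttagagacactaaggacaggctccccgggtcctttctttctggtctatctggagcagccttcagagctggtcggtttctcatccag
Pln: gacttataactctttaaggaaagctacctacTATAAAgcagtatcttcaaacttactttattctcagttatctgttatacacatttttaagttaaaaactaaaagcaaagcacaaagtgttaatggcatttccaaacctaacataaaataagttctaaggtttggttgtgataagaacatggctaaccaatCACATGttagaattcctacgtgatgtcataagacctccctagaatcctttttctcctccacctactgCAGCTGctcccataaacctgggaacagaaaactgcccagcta
Casq2: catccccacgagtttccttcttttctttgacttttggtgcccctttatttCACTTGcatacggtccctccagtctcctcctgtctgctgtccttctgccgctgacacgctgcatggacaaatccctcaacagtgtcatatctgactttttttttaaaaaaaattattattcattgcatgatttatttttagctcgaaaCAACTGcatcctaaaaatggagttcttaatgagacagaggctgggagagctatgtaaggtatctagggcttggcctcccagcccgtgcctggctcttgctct

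The *Atp2a3* window held 25 CG dinucleotides, more than 81.6% of the 32851 mouse windows, and 5 GC boxes. The *Pln* window held 1 CG dinucleotide, more than 5.43% of windows, with 1 TATA box and 2 E-boxes, and the *Casq2* window held 6 CG dinucleotides and 2 E-boxes. The *Slc8a1* window held 9 CG dinucleotides and 1 E-box. Over all windows the median was 7 CG dinucleotides, and 35.7% held a GC box, 13.6% a TATA box and 72.3% an E-box. These matches describe letters in a window and say nothing about which factor binds there.

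Few calcium cycling probes passed the test between the genotypes. Of the 23 probes, 2 passed an adjusted p of 0.05 (8.70%), 1 of *Atp2a3* and 1 of *Slc8a1*, beside 4.91% of the 25624 probes tested (1257). Both were higher in the hearts labelled SIRT1 KO, beside 3.98% of all probes tested that were called higher. The median log2 fold change of the 23 probes was 0.01, as over all probes (0.01), and the median size of the change, its sign set aside, was 0.056 for the 23 probes and 0.133 over all probes. The genotypes did not overlap for 3 of the 23 probes (13.0%), beside 13.7% of all probes with 8 values. In whole hearts, fewer cells of a type and less RNA per cell cannot be told apart, and since the labels do not say that the hearts came from separate litters, the p-values measure the spread between these hearts.

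**Figure D1:**
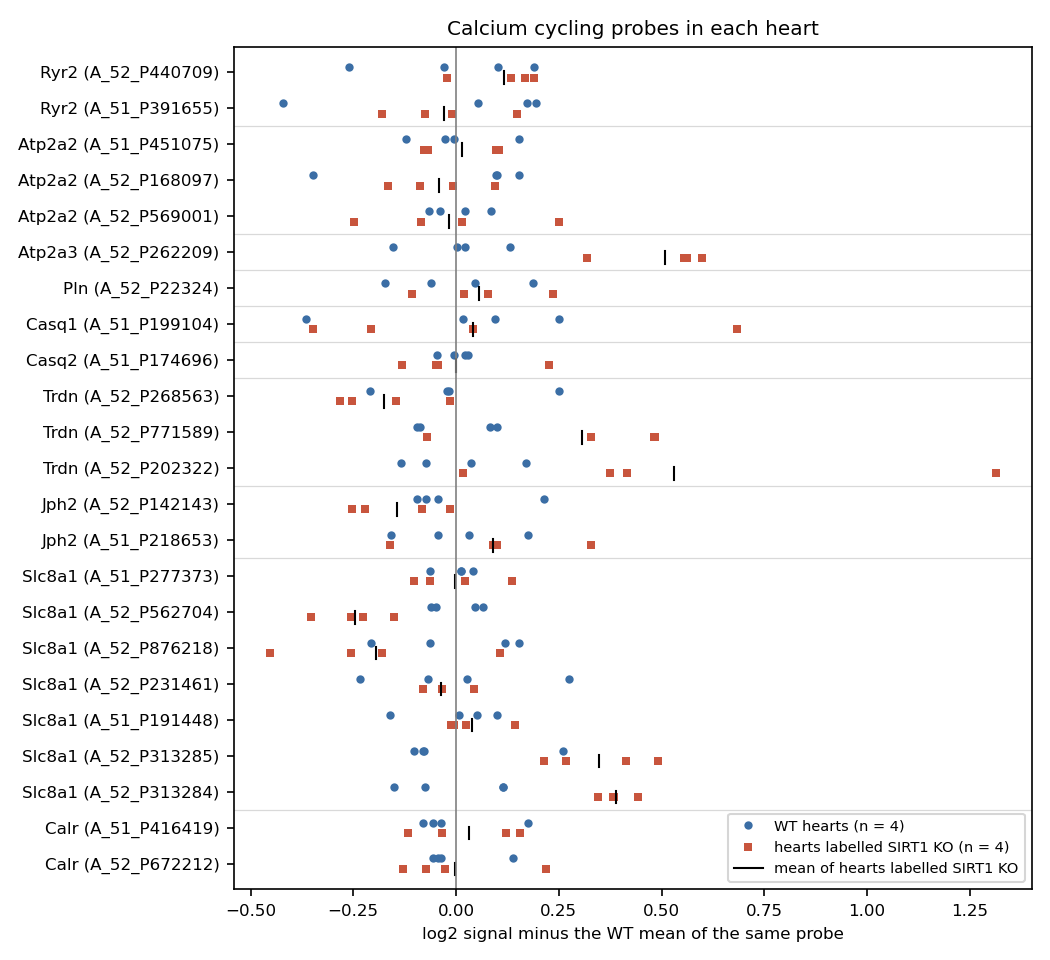
Log2 signal of each of the 23 calcium cycling probes in each heart (x axis, minus the WT mean of the same probe; y axis, gene and probe), with 4 WT hearts as blue circles, 4 hearts labelled SIRT1 KO as red squares and the mean of the latter as a black bar. The squares lie apart to the right for *Atp2a3* and for 1 *Slc8a1* probe (A_52_P313284), apart to the left for another (A_52_P562704), and overlap the circles elsewhere.

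The probe with the smallest p of the 23 belonged to calcium uptake, to a pump that is not the main one of heart muscle. *Atp2a3* encodes SERCA3, a SERCA pump known mainly from platelets, lymphoid cells, endothelium and other non-muscle cells. Its probe (A_52_P262209) read -2.98, -3.26, -3.09 and -3.11 in the WT hearts and -2.51, -2.55, -2.54 and -2.79 in the hearts labelled SIRT1 KO. All 4 of the latter lay above all 4 WT hearts, although the fourth stood between the other 3 and the WT hearts. The log2 difference was 0.51 ± 0.09 (SE; 95% confidence interval 0.30 to 0.72, adjusted p = 0.017 with limma), or 1.42-fold. The exact two-sided permutation test gave p = 0.0286, the smallest that 4 hearts against 4 can give. The call was lost (adjusted p up to 0.0534) without WT replicate 3, SIRT1 KO replicate 1 or SIRT1 KO replicate 2, while the log2 fold change stayed between 0.46 and 0.57 with any 1 heart left out. It was also lost without scaling (0.29, adjusted p = 0.077), with median scaling (0.38, adjusted p = 0.051), with quantile normalization (0.41, adjusted p = 0.051) and with the methods' analysis of variance (adjusted p = 0.0502).

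Markers of cell types known for SERCA3 were set beside this value. All 8 platelet and megakaryocyte genes of the fixed list, *Itga2b* and *Pf4* among them, were tested and 0 were called, and their summed signal was 4.20 to 6.14 in WT and 3.58 to 4.81 in hearts labelled SIRT1 KO. All 8 endothelial genes, such as *Pecam1* and *Cdh5*, were tested and 0 were called (43.8 to 48.0 against 38.6 to 47.0). Of 10 lymphoid genes, 7 were not well above background in enough hearts to be tested, *Cd3e*, *Cd4* and *Cd8a* among them, and 0 of the 3 tested were called (summed signal of these 0.102 to 0.169 against 0.108 to 0.155). The part of these cell types in the *Atp2a3* value was not tested.

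*Atp2a2*, the SERCA2 gene and the main pump of the heart, read 5.67, 5.58, 5.70 and 5.86 in the WT hearts and 5.62, 5.63, 5.80 and 5.80 in the hearts labelled SIRT1 KO on its brightest probe (A_51_P451075). The genotypes overlapped throughout, with a log2 difference of 0.01 ± 0.09 (SE; adjusted p = 0.944 with limma), and the 95% confidence interval left room for a change from 0.882-fold to 1.16-fold. Its other probes gave log2 fold changes of -0.04 (A_52_P168097) and -0.02 (A_52_P569001), neither past the threshold.

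*Pln*, whose product phospholamban holds the SERCA2 pump back until it is phosphorylated, read 5.26, 5.15, 5.50 and 5.37 in the WT hearts and 5.34, 5.21, 5.55 and 5.40 in the hearts labelled SIRT1 KO (A_52_P22324). The log2 difference was 0.06 ± 0.10 (SE; adjusted p = 0.794 with limma), with a 95% confidence interval from 0.883-fold to 1.22-fold. The balance of brake to pump, taken within each heart as the *Pln* value minus the *Atp2a2* value, differed by 0.04 between the groups (p = 0.657 in the exact two-sided permutation test).

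On the release side no probe passed the threshold as scaled here. *Ryr2*, the calcium release channel, read 3.53, 3.30, 3.66 and 3.75 in the WT hearts and 3.70, 3.73, 3.54 and 3.75 in the hearts labelled SIRT1 KO on its brighter probe (A_52_P440709). The values overlapped, with a log2 difference of 0.12 ± 0.11 (SE; adjusted p = 0.560 with limma), and this sign turned to -0.10 without scaling and to -0.02 with median scaling. With 1 heart left out the log2 difference lay between 0.03 and 0.18, lowest without WT replicate 2. The other *Ryr2* probe (A_51_P391655) gave -0.03.

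*Trdn*, which encodes triadin, was the member whose probes gave the widest range of log2 fold changes. The brightest (A_52_P268563) read 3.59, 4.05, 3.78 and 3.79 in the WT hearts and 3.55, 3.52, 3.66 and 3.79 in the hearts labelled SIRT1 KO, which gave a log2 difference of -0.17 (adjusted p = 0.390 with limma). With 1 heart left out this lay between -0.24 and -0.09, smallest in size without WT replicate 2. On A_52_P771589 the WT hearts read -0.27, -0.08, -0.10 and -0.28 and the hearts labelled SIRT1 KO 0.30, 0.30, 0.14 and -0.25, a log2 fold change of 0.31 (adjusted p = 0.214 with limma). The fourth heart labelled SIRT1 KO lay within the WT values there and the other 3 lay above them. The third probe (A_52_P202322) had a log2 difference of 0.53 ± 0.24 (SE; adjusted p = 0.242 with limma), with 1 heart labelled SIRT1 KO at -2.39 and the other 3 between -3.69 and -3.29, against -3.84 to -3.54 in WT. Without that heart, SIRT1 KO replicate 2, it was 0.27 (adjusted p = 0.322 with limma). Taken within each heart, the dimmer probes minus the brightest differed by 0.48 and 0.70 between the genotypes, and neither difference passed the test over the 13 probe pairs (adjusted p = 0.186 for each, exact permutation test). Each *Trdn* probe passed the threshold in 1 alternative: A_52_P268563 without scaling (-0.39, adjusted p = 0.042 with limma), A_52_P771589 without SIRT1 KO replicate 4 (0.43, adjusted p = 0.036 with limma) and A_52_P202322 with normexp (0.43, adjusted p = 0.0498 with limma).

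*Jph2*, which encodes the membrane tether junctophilin 2, read 3.80, 3.51, 3.54 and 3.49 in the WT hearts and 3.57, 3.36, 3.50 and 3.33 in the hearts labelled SIRT1 KO on its brighter probe (A_52_P142143). The log2 fold change was -0.14 (adjusted p = 0.420 with limma), and -0.07 without the first WT heart, which stood above the other 7. It passed without scaling (-0.36, adjusted p = 0.049 with limma). The other probe (A_51_P218653) gave 0.09 (adjusted p = 0.695 with limma), and between 0.01 and 0.17 with 1 heart left out.

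No probe of the calcium buffers passed the threshold. *Casq2*, the cardiac calsequestrin, read 5.22, 5.25, 5.18 and 5.26 in the WT hearts and 5.18, 5.18, 5.45 and 5.09 in the hearts labelled SIRT1 KO (A_51_P174696). The log2 difference was 0.00 ± 0.09 (SE; adjusted p = 0.997 with limma), the 95% confidence interval ran from 0.871-fold to 1.15-fold, and the third heart labelled SIRT1 KO was the highest of the 8. *Casq1*, the calsequestrin of skeletal muscle, read 0.05, 0.67, 0.51 and 0.43 in the WT hearts and 0.21, 0.46, 1.10 and 0.07 in the hearts labelled SIRT1 KO (A_51_P199104). Its log2 fold change was 0.04 with a standard error of 0.22, and its interval, from 0.726-fold to 1.46-fold, was the widest among the brightest probes of the 10 genes. In the skeletal muscle list, *Myod1*, *Myf5*, *Myf6* and *Pax7* were not well above background, while *Myog*, a factor of muscle differentiation (log2 fold change 0.52, adjusted p = 0.029), and *Tnni2*, a fast-muscle troponin (0.62, adjusted p = 0.022), were higher in the hearts labelled SIRT1 KO with limma. The other 4 tested genes of the list were not called, *Tnnt3* at -0.36, *Mybpc2* at -0.08, *Myh1* at -0.71 and *Myh4* at 0.16. The median of the 6 was 0.04 and the summed signal overlapped, 73.8 to 85.8 in WT and 80.5 to 103 in hearts labelled SIRT1 KO. Mean log2 signals were 6.30 for *Myh4*, 2.18 for *Tnni2* and -5.20 for *Myog*. The sum therefore followed mainly *Myh4*, and the *Myog* probe was dim. The *Myog* call was kept in 3 of the 8 fits that left out a heart and in 3 of 10 other settings (adjusted p up to 0.197), and the *Tnni2* call in 4 of 8 and 7 of 10. The part of these genes in the spread of *Casq1* was not tested. *Calr*, the calcium-binding chaperone of the endoplasmic reticulum, had log2 fold changes of 0.03 and 0.00 on its probes (A_51_P416419 and A_52_P672212).

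Extrusion, through *Slc8a1*, was read by 7 probes, with log2 fold changes from -0.25 to 0.39. The brightest (A_51_P277373) read 3.07, 3.07, 2.996 and 3.10 in the WT hearts and 3.20, 2.997, 3.08 and 2.96 in the hearts labelled SIRT1 KO, which gave a log2 difference of 0.00 ± 0.08 (SE; 95% confidence interval 0.887-fold to 1.12-fold, adjusted p = 0.992 with limma). The 5 probes on coding transcript records gave 4 values below 0 and 1 above, between -0.25 and 0.04, and 0 were called. Of these, A_52_P562704 read 1.27, 1.16, 1.15 and 1.25 in the WT hearts and 0.98, 0.86, 1.06 and 0.95 in the hearts labelled SIRT1 KO. The groups did not overlap, yet the log2 fold change of -0.25 did not pass over all probes (standard error 0.07, adjusted p = 0.096 with limma). It did pass without scaling (-0.47, adjusted p = 0.013), with median scaling (-0.38, adjusted p = 0.039) and with normexp background correction (-0.31, adjusted p = 0.028).

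The remaining *Slc8a1* probes, 2 in number, lie on a non-coding transcript record that RefSeq assigns to the gene, and both had a log2 fold change above 0, 1 of them past the threshold. A_52_P313284 read -3.22, -3.22, -3.48 and -3.41 in the WT hearts and -2.89, -2.95, -2.98 and -2.95 in the hearts labelled SIRT1 KO. All 4 of the latter lay above all 4 WT hearts, with a log2 difference of 0.39 ± 0.08 (SE; 95% confidence interval 0.20 to 0.58, adjusted p = 0.032 with limma), or 1.31-fold. This call was kept without WT replicate 1, WT replicate 2 or SIRT1 KO replicate 3 and was lost with each of the other 5 hearts left out (adjusted p up to 0.090), without scaling (0.17), with median scaling (0.26), quantile normalization (0.28), cyclic loess (0.30), no filter on dim probes (adjusted p = 0.069) and the methods' analysis of variance (adjusted p = 0.057). A_52_P313285 read -3.23, -3.24, -3.26 and -2.90 in the WT hearts and -2.89, -2.74, -2.66 and -2.94 in the hearts labelled SIRT1 KO, which gave a log2 difference of 0.35 (adjusted p = 0.106 with limma). Within each heart, A_52_P313284 minus the brightest *Slc8a1* probe differed by 0.39 and A_52_P562704 minus the brightest by -0.24 between the genotypes, both without overlap, but 0 of the 13 probe pairs passed after adjustment (smallest adjusted p = 0.186, exact permutation test). With 4 hearts a group, none of the 13 could pass unless at least 8 of them were at the smallest possible p, so this count says nothing about whether the probes differ.

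**Figure D2:**
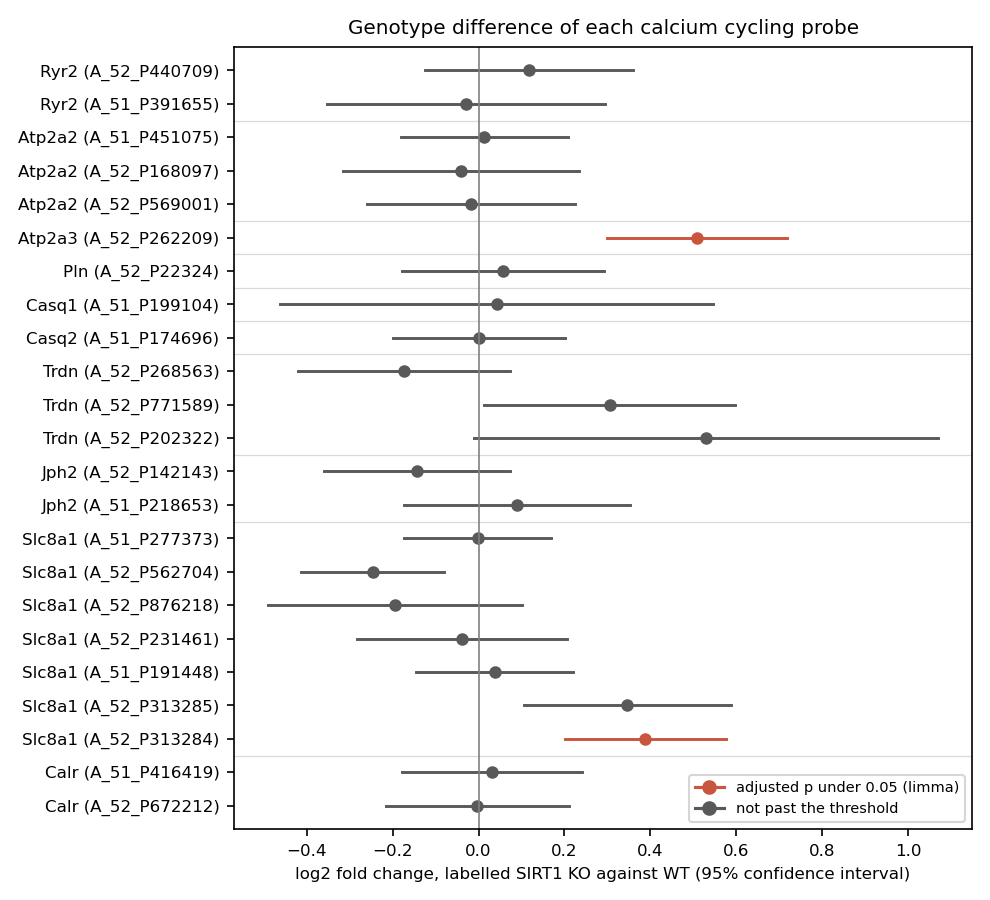
Log2 fold change of each of the 23 probes in hearts labelled SIRT1 KO (n = 4) against WT (n = 4), with 95% confidence intervals from limma; red marks an adjusted p under 0.05 over all tested probes. The red probes are those of *Atp2a3* (0.51) and of the non-coding *Slc8a1* record (A_52_P313284, 0.39), and the intervals of 3 further probes leave out 0 without an adjusted p under the threshold: *Slc8a1* A_52_P562704 (-0.25) and A_52_P313285 (0.35), and *Trdn* A_52_P771589 (0.31).

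Read by the brightest probe of each gene, 1 of the 10 genes was called, *Atp2a3*, beside 4.62% of the 13600 named genes read in this way (629). The other 9 genes had log2 fold changes between -0.17 and 0.12, and the 95% confidence interval of each of the 9 spanned 0. The widest of these intervals, that of *Casq1*, reached from 0.726-fold to 1.46-fold, and the narrowest, that of *Slc8a1*, from 0.887-fold to 1.12-fold.

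Differences between 2 genes of the same heart do not depend on a constant scaling of the array, and 7 such pairs were compared. *Atp2a3* minus *Atp2a2* was higher by 0.49 in the hearts labelled SIRT1 KO, or 1.41-fold. Set to a WT mean of 0, it was 0.16, -0.03, 0.03 and -0.15 in the WT hearts and 0.68, 0.62, 0.47 and 0.22 in the hearts labelled SIRT1 KO, without overlap. The exact two-sided permutation test gave p = 0.0286 and an adjusted p of 0.2 over the 7 pairs, so the difference did not pass. With 7 pairs and 4 hearts a group, a single pair at the smallest possible p cannot pass this adjustment.

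For the release unit, *Trdn* minus *Ryr2* differed by -0.29 and *Jph2* minus *Ryr2* by -0.26 between the genotypes, each with p = 0.143 and an adjusted p of 0.333 (exact permutation test). Set to a WT mean of 0, *Trdn* minus *Ryr2* was 0.51 in WT replicate 2 and -0.21 to -0.12 in the other WT hearts. It was -0.45 to -0.13 in the hearts labelled SIRT1 KO, so its size leans on 1 WT heart. With the mean of all probes of a gene in place of the brightest, *Trdn* minus *Ryr2* turned to 0.18, and *Jph2* minus *Ryr2* kept its sign but was smaller in size. *Ryr2* minus *Atp2a2* differed by 0.10, *Casq1* minus *Casq2* by 0.04 and *Slc8a1* minus *Atp2a2* by -0.02, and none of these passed.

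All tested probes were split by mean signal into 3 equal parts, and both calls fell in the part of lowest signal. That part held 8542 tested probes, of which 753 were called (8.82%) with a median log2 fold change of 0.10, and 4 of the 23 probes, those of *Atp2a3*, of the non-coding *Slc8a1* record and A_52_P202322 of *Trdn*. The middle part held 8 of the 23 probes, of which 0 were called, beside 4.06% of all its probes. The part of highest signal held 11 of the 23 probes, of which 0 were called, beside 1.84% of all its probes. The raw intensity behind the *Atp2a3* probe was 108 to 159 units and that behind the brightest *Atp2a2* probe 43265 to 54374 units. A probe's signal depends on its own sequence, so these are not compared as levels of RNA.

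**Figure D3:**
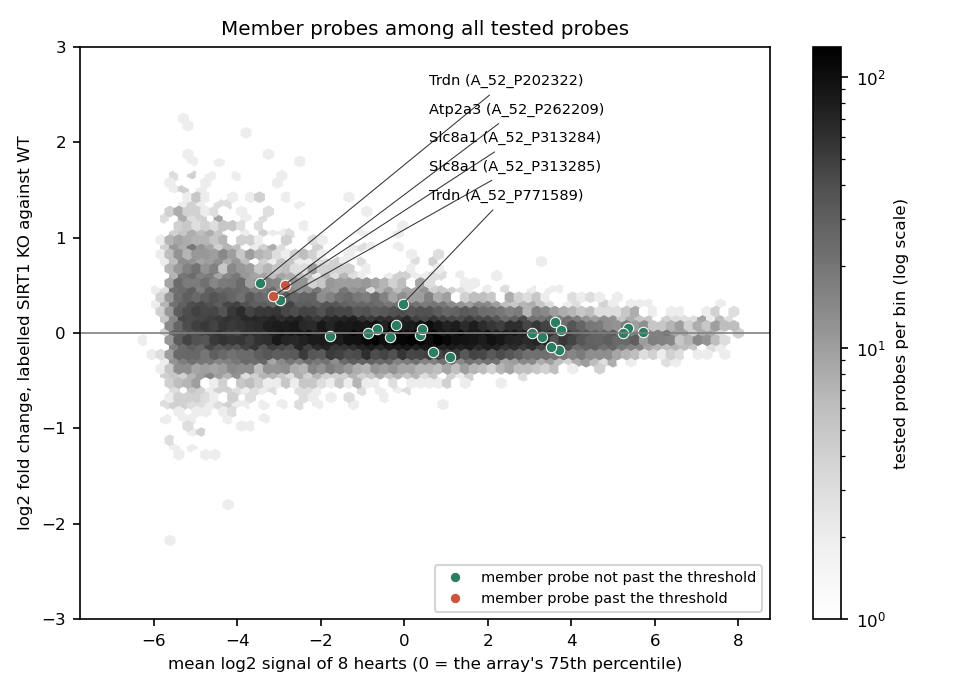
Log2 fold change in hearts labelled SIRT1 KO against WT (y axis) by mean log2 signal of the 8 hearts (x axis, 0 is the 75th percentile of the array) for all tested probes as grey bins, with darker bins holding more probes on a log scale, and the 23 calcium cycling probes as circles, red where called. The grey cloud is wider and lies slightly above 0 at low signal, where the called probes of *Atp2a3* and *Slc8a1* lie, and is narrow at high signal, where 11 of the 23 probes lie and 0 were called.

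The sign of small differences turned with the scaling. Relative to the 75th percentile the median probe changed by 0.01, against -0.12 with median scaling and -0.21 with no scaling, and the share of called probes that were higher was 81.2% against 35.6% and 10.1% (63.9% with quantile normalization and 70.4% with cyclic loess). These 3 scalings shift all probes of an array alike, so a difference between probes is the same under each by construction. Under settings that do not, the *Atp2a3* log2 fold change minus that of the median probe was 0.43 with quantile normalization, 0.44 with cyclic loess and 0.37 with normexp, against 0.50 here. With median scaling and with no scaling the log2 fold changes of the brightest probes of *Ryr2*, *Atp2a2*, *Pln*, *Casq1* and *Casq2* lay below 0, as did that of the median probe.

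**Figure D4:**
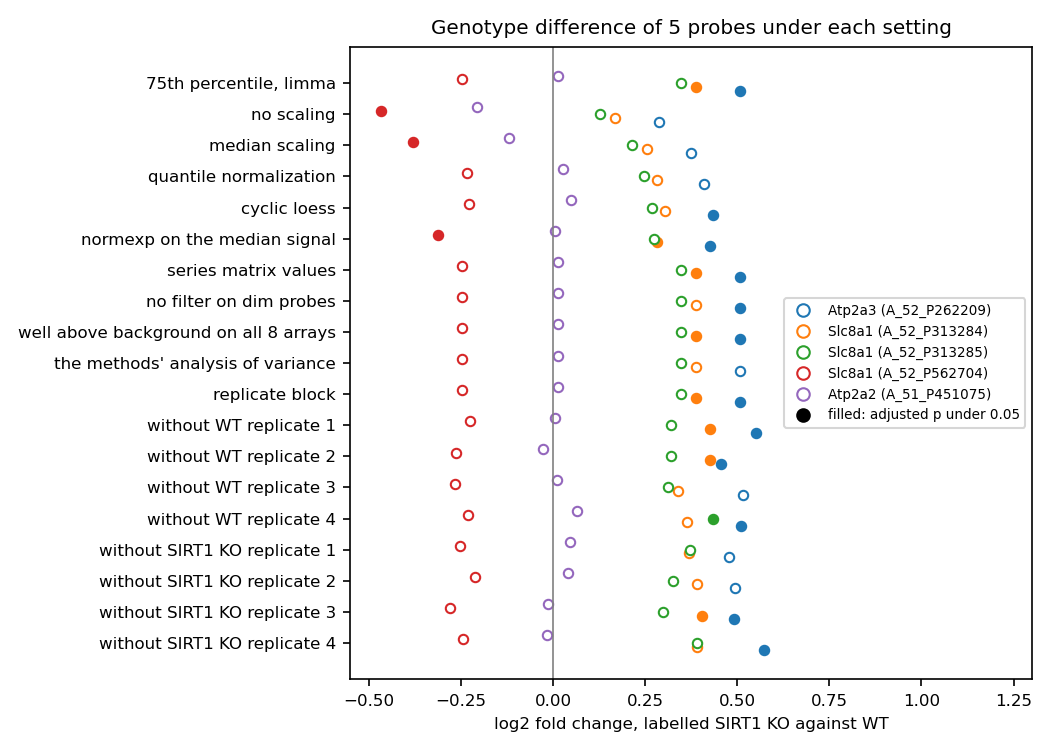
Log2 fold change in hearts labelled SIRT1 KO against WT (x axis) of 5 probes under each processing choice and with each heart left out (y axis), filled where the adjusted p was under 0.05. *Atp2a3* stayed between 0.29 and 0.57 and was filled in part of the settings, the non-coding *Slc8a1* probes stayed above 0, A_52_P562704 of *Slc8a1* stayed below 0, and the brightest *Atp2a2* probe lay on either side of 0.

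Other genes of calcium handling were read from a list of 56 in 7 roles, of which 46 were tested by their brightest probe. Of the other 10 genes, 4 were not well above background on enough arrays (*Ryr1*, *Jph3*, *Atp2b2* and *Atp2b3*) and 6 had no probe matched to them (*Ryr3*, *Mrln*, *Strit1*, *Pdia3*, *Rcn2* and *Atp2b4*). Of the 46, 2 were called (4.35%), *Jph4* and *Slc8a2*, beside 4.62% of all genes read in this way, and both were higher in the hearts labelled SIRT1 KO. Of all 46, 19 lay higher and 27 lower, with a median log2 fold change of -0.02.

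*Jph4*, a junctophilin known from brain, read -2.59, -2.55, -2.66 and -2.55 in the WT hearts and -1.87, -1.63, -1.63 and -1.89 in the hearts labelled SIRT1 KO. The groups were far apart, with a log2 difference of 0.83 ± 0.09 (SE; 95% confidence interval 0.63 to 1.03, adjusted p = 0.0019 with limma), or 1.78-fold. The call was kept with every heart left out in turn and under all 10 other settings, 1 of which, the authors' table of the series, repeats the values used here. *Slc8a2*, the exchanger NCX2 known from brain, read -3.99, -4.25, -3.97 and -3.85 in the WT hearts and -3.49, -3.44, -3.35 and -3.66 in the hearts labelled SIRT1 KO. Its log2 difference was 0.53 ± 0.11 (SE; adjusted p = 0.024 with limma). The mean signal of this probe, -3.75, lay in the part of lowest signal, where 8.82% of all probes were called (753, of which 664 were higher). The call was kept in 3 of the 8 fits that left out a heart and in 4 of the 10 other settings.

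Among release channels and their partners 1 of 13 tested genes was called (*Jph4*), and among extrusion genes 1 of 4 (*Slc8a2*). None of the 5 uptake genes, 9 luminal buffers and chaperones, 4 counter-ion channels, 6 genes of store-operated entry and 5 genes of dyad and T-tubule structure was called with limma. The smallest p in each of these groups belonged to *S100a1*, a calcium sensor that stimulates SERCA and RYR2 (log2 fold change -0.27, adjusted p = 0.124), *Sdf4*, a calcium-binding protein of the secretory pathway (-0.19, adjusted p = 0.179), *Tmem38a*, the counter-ion channel TRIC-A (-0.13, adjusted p = 0.566), *Orai2*, a calcium entry channel (-0.24, adjusted p = 0.182), and *Ank2*, which anchors the exchanger at the membrane (-0.12, adjusted p = 0.480). With 1 heart left out *Tmem38a* lay between -0.19 and -0.04 and *Ank2* between -0.17 and -0.05.

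*S100a1* read 4.40, 4.44, 4.39 and 4.37 in the WT hearts and 4.11, 4.00, 4.35 and 4.07 in the hearts labelled SIRT1 KO, all 4 below all 4 WT hearts. It passed the threshold when SIRT1 KO replicate 3, the one nearest to WT, was left out (log2 fold change -0.34, adjusted p = 0.028 with limma). It also passed without scaling (-0.49, adjusted p = 0.013), with median scaling (-0.40, adjusted p = 0.0498) and with normexp (-0.30, adjusted p = 0.041). *Sln*, which encodes sarcolipin, the SERCA regulator of the atria, was picked out after its values were seen. It read 5.33, 6.48, 5.55 and 5.44 in the WT hearts and 3.86, 6.09, 4.85 and 5.16 in the hearts labelled SIRT1 KO, with a log2 difference of -0.71 ± 0.44 (SE; adjusted p = 0.384 with limma). Without SIRT1 KO replicate 1 the log2 fold change was -0.33, without WT replicate 2 it was -0.45, and without SIRT1 KO replicate 2 it was -1.08. The second heart was the highest in both groups, and whether the share of atrium differed between hearts was not tested.

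**Figure D5:**
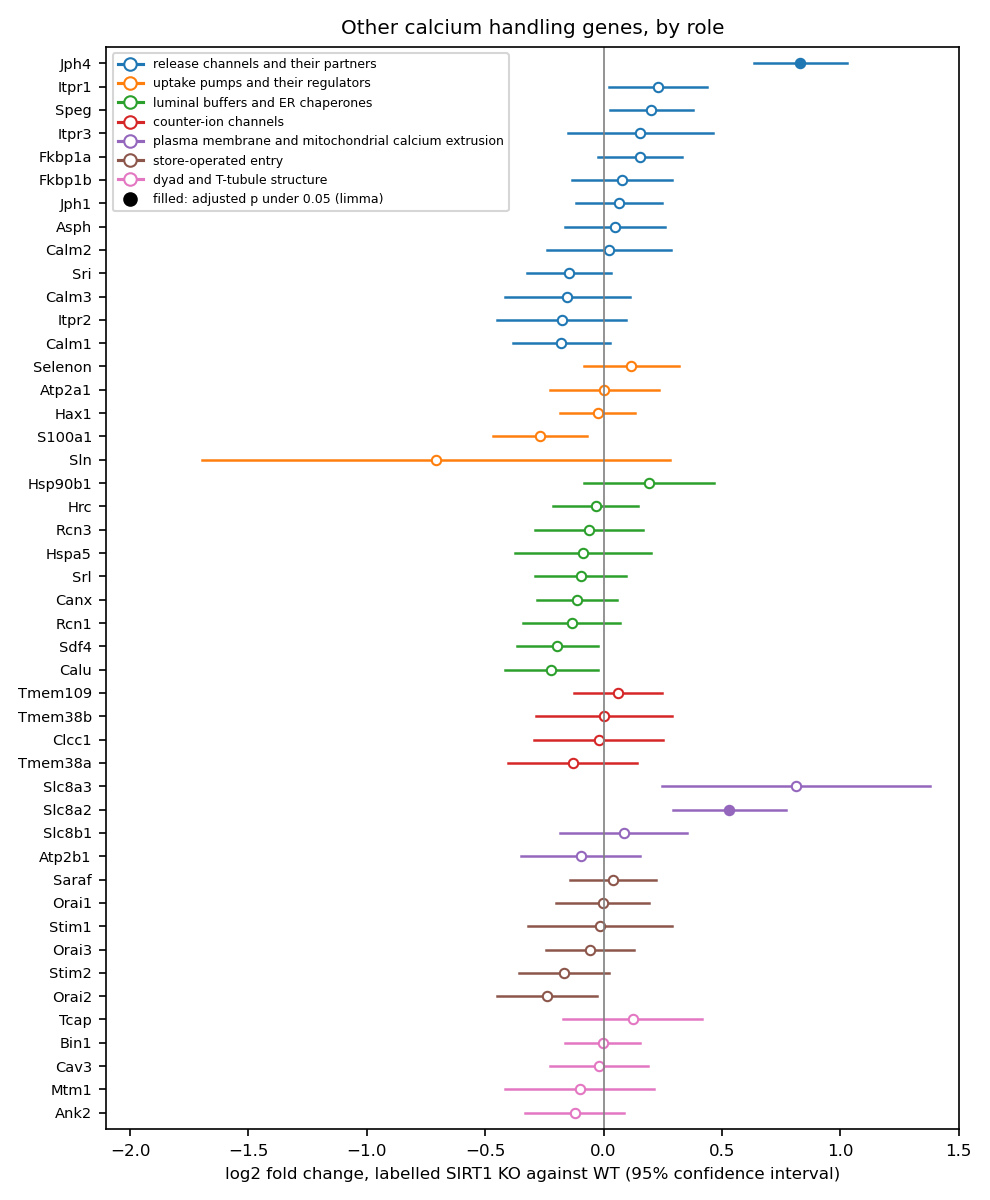
Log2 fold change with 95% confidence intervals of the brightest probe of 46 other calcium handling genes in hearts labelled SIRT1 KO (n = 4) against WT (n = 4), grouped and colored by role and filled where the adjusted p was under 0.05 with limma. *Jph4* (0.83) and *Slc8a2* (0.53) are filled, and *Sln* (-0.71) has the widest interval.

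Among the lists of cell type markers, the fibroblast and epicardial, smooth muscle and macrophage lists had 0 called genes, and all 5 lung genes were not well above background on enough arrays. In the erythroid list *Hbb-y*, an embryonic globin (log2 fold change 0.92, adjusted p = 0.0078 with limma), and *Epor*, the erythropoietin receptor (0.66, adjusted p = 0.015 with limma), were higher in the hearts labelled SIRT1 KO. The *Hbb-y* call was kept with each heart left out, and the *Epor* call was lost without WT replicate 2 (adjusted p = 0.051). The summed liver signal was 4.03 to 13.3 in WT and 4.91 to 59.7 in hearts labelled SIRT1 KO, highest in replicates 1 and 4, and none of its 4 tested genes was called. The *Atp2a3* value was -2.51 and -2.79 in those hearts and -2.55 and -2.54 in the other 2.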

How the data were processed

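RNA from 4 WT and 4 SIRT1 KO mouse hearts at E18.5 was measured on one-color Agilent arrays, grouped by the genotype in the labels. The authors deposited spot intensity values from Agilent Feature Extraction (file headers 12.0.0.7; another version is named in the methods), background-subtracted but not scaled between arrays. Their table of the series holds the same processed signal.

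Here log2 of the processed signal was taken, the 75th percentile of each array subtracted and the spots of a probe averaged, without control and outlier spots. Unversioned accessions were looked up among RefSeq names of GRCm38.p6, and this named 28223 probes (68.5%) of 19096 genes. A probe had to be well above background on 4 or more of the 8 arrays to be tested. Tests used limma 3.58.1 in R 4.3.3 (lmFit, eBayes; Benjamini-Hochberg at 0.05 over all tested probes), and differences within a heart used exact two-sided permutation tests. The fit was tested on simulated data. Python 3.11.15, numpy 2.4.6, pandas 2.3.3 and matplotlib 3.10.9 were used. WT arrays had 24939 to 25752 probes well above background (60.6% to 62.5%) and a 75th percentile of 939 to 1033 intensity units, the others 24497 to 26747 probes (59.5% to 65.0%) and 777 to 906 units. No spot was saturated, and precision is limited by the number of arrays.

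The 10 genes and the lists were chosen with earlier results of these data known. Named are these genes with every probe, *Sirt1*, other calcium genes and cell type markers past the threshold, and the gene with the smallest p in each role. Alternatives covered scaling, background correction, the filter, the test, the replicate block, the authors' table of the series and each heart left out. Every count over 10 other settings includes that table, which had to repeat the main result. The methods' analysis of variance was run with genotype as its only factor, since its factors are not given in the sources used here.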

Additional observations from a re-analysis of the deposited data

Results flagged for a closer look

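In 5 cases 1 heart stood apart from the other 3 of its group on a probe (its gap to the nearest heart, over the range of the group, exceeded Dixon's critical value for 4 samples). Of 74 groups of 4 hearts looked at, chance alone marks about 1 in 20.

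The *Atp2a3* probe (A_52_P262209) was at -2.79 in SIRT1 KO replicate 4 and between -2.55 and -2.51 in the other 3 hearts labelled SIRT1 KO. Without this heart the log2 fold change was 0.57 (adjusted p = 0.0103 with limma). *Slc8a1* A_52_P313285, on the non-coding record, was at -2.90 in WT replicate 4 and between -3.26 and -3.23 in the other WT hearts. Without it the log2 fold change was 0.43 and passed the threshold (adjusted p = 0.0472 with limma).

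*Atp2a2* A_52_P168097 was at 2.98 in WT replicate 2 and between 3.42 and 3.48 in the other WT hearts, and without it the log2 fold change was -0.16 (adjusted p = 0.380 with limma). *Jph2* A_52_P142143 was at 3.80 in WT replicate 1 and between 3.49 and 3.54 in the others, and without it the log2 fold change was -0.07. *Calr* A_52_P672212 was at -0.74 in WT replicate 4 and between -0.93 and -0.91 in the others, and without it the log2 fold change was 0.04.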

How the results depend on the processing

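Depth in the sense of reads does not apply to these arrays; what limits them is 4 hearts a group, dim probes near background and 1 slide per genotype. The planned normexp correction needs the mean signal, which the files used here do not hold, so it was run on the median signal, chosen after seeing the data. A slide block could not be fitted, since each slide holds 1 genotype. The cause of the differences between settings was not tested.

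The count of calcium cycling probes called, 2, became 3 without scaling (all lower), 1 with median scaling (lower), with cyclic loess and with no filter on dim probes, 4 with normexp, and 0 with quantile normalization and with the methods' analysis of variance. The count over all probes, 1257, became 6351 without scaling, 1909 with median scaling, 2572 with normexp and 550 with the methods' analysis of variance. The count of other calcium genes, 2, became 14 without scaling, 4 with normexp and 1 with quantile normalization, with cyclic loess, with no filter and with the methods' analysis of variance. With 1 heart left out these counts lay between 0 and 2, between 660 and 1827, and between 1 and 3; the calcium cycling count was 0 without WT replicate 3, SIRT1 KO replicate 1 or SIRT1 KO replicate 2, and the count over all probes was 660 without WT replicate 3 and 663, 732 and 728 without WT replicate 2, SIRT1 KO replicate 1 and SIRT1 KO replicate 2.

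Some signs turned. Without scaling and with median scaling the log2 fold change became -0.10 and -0.016 for *Ryr2* A_52_P440709, -0.21 and -0.12 for *Atp2a2* A_51_P451075, -0.16 and -0.077 for *Pln*, -0.18 and -0.091 for *Casq1*, -0.22 and -0.13 for *Casq2*, -0.13 and -0.044 for *Jph2* A_51_P218653, -0.18 and -0.10 for *Slc8a1* A_51_P191448, and -0.19 and -0.10 for *Calr* A_51_P416419. *Slc8a1* A_51_P277373 became 0.023 with quantile normalization and 0.028 with cyclic loess, and with normexp *Casq2* became -0.014, *Calr* A_52_P672212 0.027 and *Orai2* 0.068. With the mean of a gene's probes, *Slc8a1* minus *Atp2a2* became 0.057 and *Trdn* minus *Ryr2* 0.18.

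With 1 heart left out, the sign turned within these ranges: -0.17 to 0.035 for *Ryr2* A_51_P391655, -0.027 to 0.065 for *Atp2a2* A_51_P451075, -0.16 to 0.0096 for A_52_P168097, -0.11 to 0.059 for A_52_P569001, -0.0037 to 0.12 for *Pln*, -0.17 to 0.17 for *Casq1*, -0.074 to 0.045 for *Casq2*, -0.048 to 0.032 for *Slc8a1* A_51_P277373, -0.12 to 0.054 for A_52_P231461, -0.016 to 0.071 for A_51_P191448, -0.010 to 0.089 for *Calr* A_51_P416419, -0.076 to 0.043 for A_52_P672212, -0.097 to 0.13 for *Casq1* minus *Casq2* and -0.093 to 0.048 for *Slc8a1* minus *Atp2a2*.

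The replicate numbers are shared by the groups, and the main fit did not treat them as pairs. The deviations of same-numbered hearts correlated at 0.204, 0.208, 0.0562 and 0.141 over probes, 1 of them below 0.1. Every heart nevertheless correlated best with its own number, and the highest correlations with another number were 0.0414, 0.0504, 0.0410 and 0.0927. Whether same-numbered hearts share a common effect was not tested. With the replicate block 1187 probes were called in place of 1257, 2 calcium cycling probes and 2 other calcium genes, with *Atp2a3* at an adjusted p of 0.036 and *Slc8a1* A_52_P313284 at 0.048, while the calls of *Sirt1* A_52_P358612 (adjusted p = 0.064) and *Slc8a2* (adjusted p = 0.060) were lost, and 0 pairs of genes or probes passed, for which the smallest possible p was 0.125.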
